A study of Oryza sativa Indica Group with 8 samples.

Results

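The genes described here are 100 of the 17905 rice genes that had on the array a probe set annotated to no other gene. They were chosen because their transcripts were higher in roots deprived of iron (Fe) than in control roots. The transcripts were also higher than in roots deprived of both Fe and phosphorus (P). The plants were Oryza sativa of the Indica Group, and RNA of whole roots was read on 8 Affymetrix arrays, 2 in each of 4 groups grown in hydroponic solution: Fe deficiency, both deficient (neither P nor Fe), P deficiency and a control with both nutrients. The submitters' text gives 7 days of treatment, 10 days of hydroponic growth and seedlings of 5 days, and the order of these times is not stated. A probe set is a group of short probes for a transcript, and its value is an intensity on a linear scale that was quantile-normalized across the arrays, then put on the scale log2(intensity + 16). Differences below are on this log2 scale, on which 1 unit is a doubling, and they understate the changes of dim probe sets. The labels do not state whether replicate arrays were separate cultures, so every p-value below rests on a spread that may be technical. In whole roots, more RNA per cell and more cells of a type cannot be told apart.

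Grasses such as rice obtain iron in a way of their own. Their roots make nicotianamine and mugineic acids from methionine, secrete the mugineic acids to bind ferric iron, and bring the complexes in through Yellow Stripe-Like (YSL) transporters, and rice also takes up ferrous iron through metal transporters of the IRT and NRAMP families. Phosphate and iron bind each other in solution, in soil and inside the plant, and withholding phosphate is known to raise the iron that a plant can reach and store.

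The rule took probe sets of exactly 1 gene with a mean of at least 7 in Fe deficiency and less than 0.5 between P deficiency and the control in either direction. The score was the smaller of 2 differences, Fe deficiency minus control and Fe deficiency minus both deficient, and the 100 genes with the highest scores were kept. OsYSL9, OsYSL15, GLUA-3 and the chitinase genes Cht1 and OsChia4a were left out by name. Of these, OsChia4a, OsYSL15 and OsYSL9 would have ranked 11, 13 and 20, whereas GLUA-3 and both loci named Cht1 lay outside the limit on P deficiency. Because the rule used these 3 differences, they describe the members, and the number of members past a threshold in them is no evidence about the members. A total of 9331 genes passed the level and P limits. The P limit mattered: of 514 probe sets with a score as high as the members', 85 passed the level minimum but lay outside the P limit, 38 of them lower and 47 higher in P deficiency, and 320 were below the level minimum. The members just inside the threshold were LOC4340892, LOC4327646 and LOC4343737 with scores of 0.56, 0.55 and 0.55. The genes just outside were LOC4333969, LOC4328929 and LOC4330677, all with scores of 0.55.

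Fe deficiency minus control had a median of 0.94 over the members and ran from 0.55 to 5.58, against a median of -0.01 over all 57194 probe sets tested. Fe deficiency minus both deficient had a median of 0.93 and ran from 0.55 to 4.01, against 0.01 over all probe sets. The difference from the control was at least 1 in 44 members and at least 2 in 17, so that most members were moderate in size. Both Fe deficiency arrays lay above both control arrays in 99 members, against 18.8% of all probe sets, and above both arrays of the combined deficiency in 97, against 27% of all probe sets. In 91 members they lay above all 6 other arrays, against 6.08% of all probe sets. The exception against the control was LOC4326133, and those against the combined deficiency were XBOS35, LOC4344489 and LOC4347320. Nothing is read from these counts, since the rule selected for them.

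**Figure D1:**
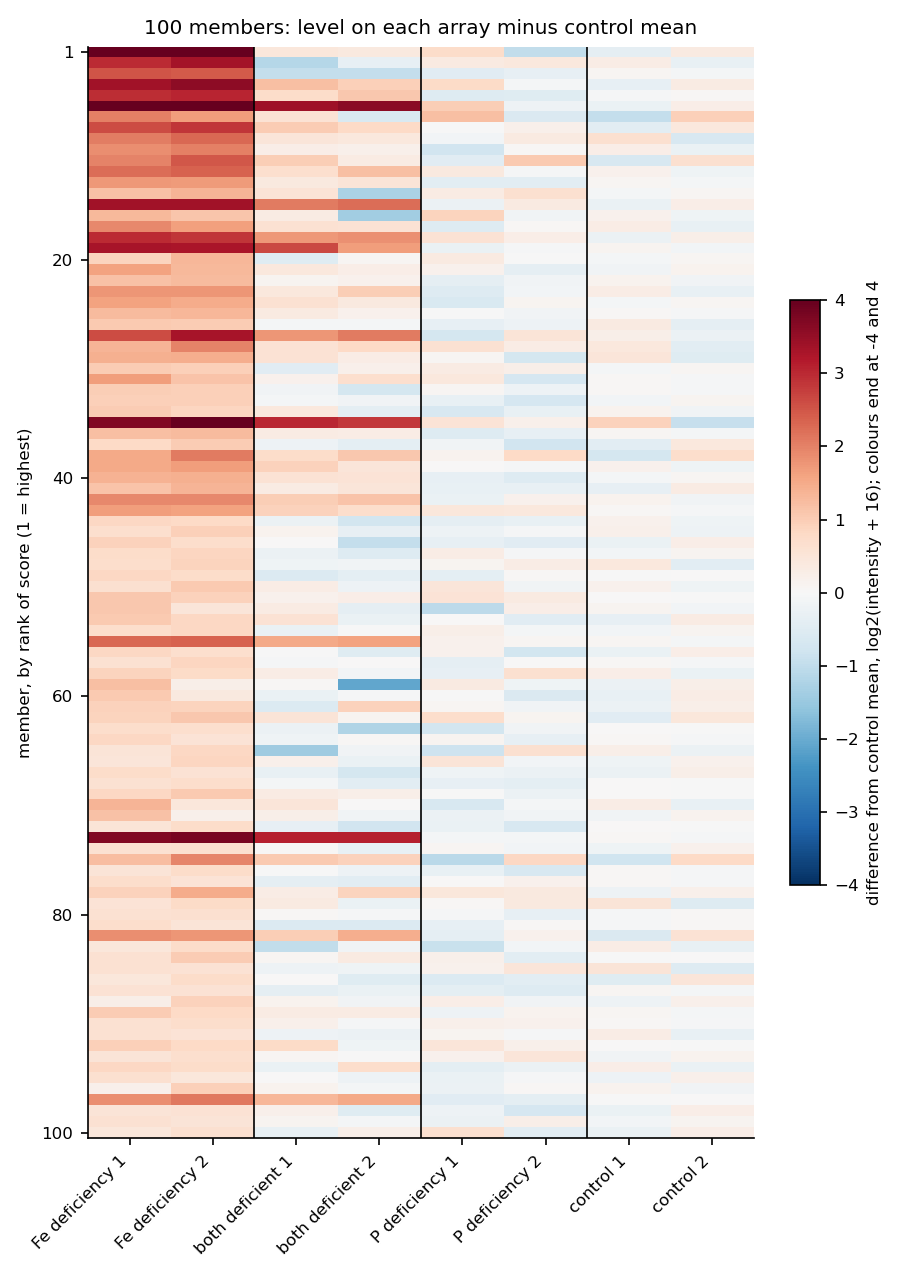
Level of each of the 100 members (rows, by rank of score) on each of the 8 arrays (columns) minus the mean of the control arrays, in log2(intensity + 16). The Fe deficiency columns are red throughout, with medians of 1.02 and 0.97, the both deficient columns are paler with medians of 0.22 and 0.00, and the P deficiency columns have medians of -0.06 and -0.09.

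The members' level was low compared with other genes that passed the limits. Their median intensity in Fe deficiency was 386, against 1121 for all genes passing the limits. In the control 18 members lay below the median intensity of an array, 57.7, and their differences depend on the added 16. The gap between the Fe deficiency arrays had a median of 0.17 among the members and 0.09 among all genes passing the limits. Of the 100 genes, 98 were protein coding, 1 was a pseudogene and 1 a long noncoding RNA in the gene table, which describes the japonica assembly ASM3414082v1. Only 18 had a name other than a locus number, 18% of the members against 13.8% of all genes. The suffix _x_at, given where probes may also match other transcripts, ended the names of 17 member probe sets, against 8.79% of all probe sets of 1 gene. Those of OSH1, ML, MT2b, Wx, WNK7 and LOC4330830 were among them, and signal from other transcripts was not tested.

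Among the named members, 4 belong to metal handling or to the supply of methionine. Nramp1 (LOC4342862) encodes a metal transporter of the plasma membrane that carries iron and cadmium. Its intensity was 2915 and 2928 in Fe deficiency, 1535 and 1688 with both deficient, 635 and 858 in P deficiency and 839 and 690 in the control. Both groups without Fe lay above both groups with Fe, and the Fe deficiency arrays lay highest. The difference from the control was 1.92 in Fe deficiency and 1.07 with both deficient, so that 55.5% of the log2 difference was still there without P.

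MT2b (OsMT-I-2c, LOC4337596) encodes a type 2 metallothionein, a small cysteine-rich protein that binds metals. It was the brightest member, with 20705 and 21546 in Fe deficiency, 11957 and 12978 with both deficient, 4699 and 4418 in P deficiency and 4421 and 3991 in the control. The 4 groups followed this order without overlap except for P deficiency and the control, whose arrays were interleaved. The differences from the control were 2.33 in Fe deficiency and 1.56 with both deficient.

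YSL6 (LOC4335676) is a Yellow Stripe-Like transporter that carries manganese bound to nicotianamine. It had 5578 and 6549 in Fe deficiency, 3832 and 3413 with both deficient, 3196 and 2516 in P deficiency and 4016 and 3797 in the control. MTK1 (LOC4337347), a methylthioribose kinase of the methionine salvage cycle, had 6461 and 6825 in Fe deficiency, 3992 and 3142 with both deficient, 3389 and 3221 in P deficiency and 4253 and 4176 in the control. For both genes only Fe deficiency lay above the control, by 0.63 for YSL6 and 0.65 for MTK1, and the mean with both deficient differed from the control by -0.11 and -0.25. These are modest differences of bright probe sets, unlike the large differences of dim ones further on.

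GRXC15 (LOC4352426) encodes a glutaredoxin, a small protein that reduces disulphides with glutathione. Its arrays gave 249 and 298 in Fe deficiency, 71.2 and 59.4 with both deficient, 26.5 and 33.5 in P deficiency and 16.2 and 41.5 in the control. The log2 differences from the control were 2.74 in Fe deficiency and 0.91 with both deficient, from a level in the control below the array median. ML (also salT, LOC4326471) encodes a mannose-binding lectin known to accumulate in salt-stressed rice. It had 8671 and 8560 in Fe deficiency, 3366 and 3742 with both deficient, 1945 on both arrays of P deficiency and 2716 and 2473 in the control. The Fe deficiency arrays were well apart from the rest and close to each other, and the difference from the control was 1.73 in Fe deficiency and 0.45 with both deficient.

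**Figure D2:**
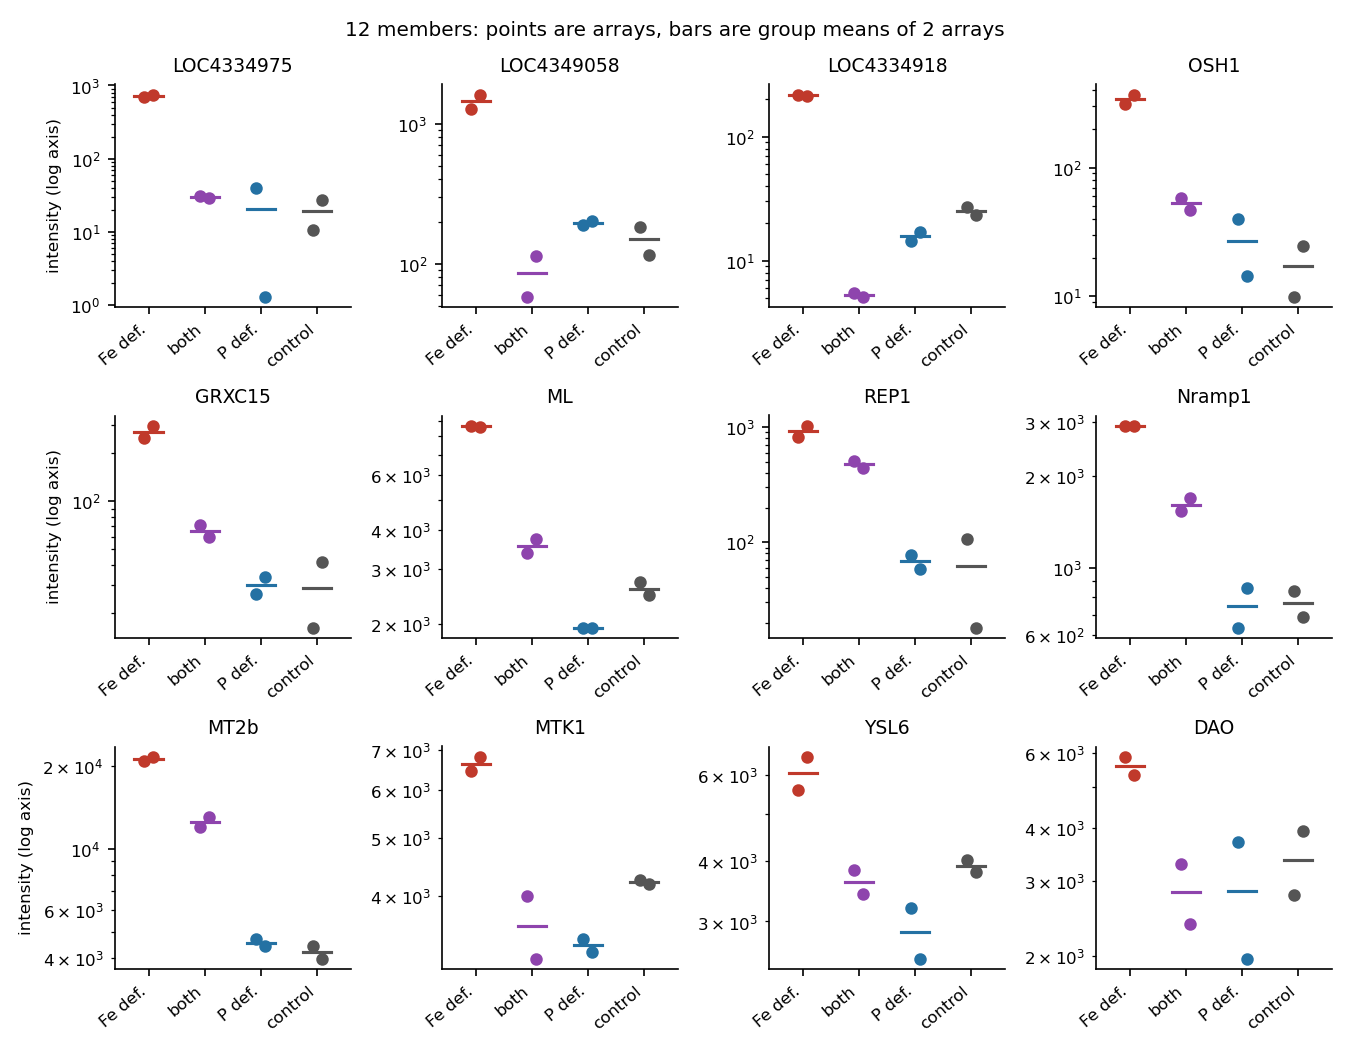
Quantile-normalized intensity (log axis, a scale of its own in each panel) of 12 members on the 8 arrays; points are arrays and bars are means of 2 arrays, with Fe deficiency, both deficient, P deficiency and control from left to right. Nramp1, MT2b and REP1 keep an intermediate level in the combined deficiency, whereas MTK1, YSL6 and DAO do not exceed the control there.

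Regulators of development formed another group of named members. OSH1 (LOC4333973) is a KNOX homeobox gene that maintains the shoot apical meristem. It had 314 and 369 in Fe deficiency, 58.4 and 46.9 with both deficient, 39.6 and 14.5 in P deficiency and 9.97 and 24.6 in the control. It lay far above the array median only in Fe deficiency, and all other arrays lay near or below that median.

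The differences of OSH1 were 3.46 from the control and 2.38 from the combined deficiency, ranking it 4. YAB6 (LOC4352818), a transcription factor of the YABBY family of leaf development, had 98.1 and 150 in Fe deficiency, 50.2 and 67.1 with both deficient, 28.1 and 52.2 in P deficiency and 8.26 and 48.7 in the control. The control arrays of YAB6 differed from each other by more than the combined deficiency differed from P deficiency. HOX5 (LOC4345576), a homeodomain leucine zipper gene, had 4205 and 4074 in Fe deficiency, 2384 and 2355 with both deficient, 2990 and 2691 in P deficiency and 3404 and 2263 in the control.

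Hormone-degrading enzymes were represented by 2 genes. CKX11 (LOC4345764) encodes a cytokinin oxidase, which breaks down cytokinins, and ranked 7 with 136 and 105 in Fe deficiency, 40.6 and 8.73 with both deficient, 71.6 and 8.99 in P deficiency and 3.42 and 56.9 in the control. Within each of the other groups its arrays differed several-fold. DAO (LOC4336150), a dioxygenase that oxidises auxin, was bright, with 5897 and 5329 in Fe deficiency, 3287 and 2377 with both deficient, 3715 and 1969 in P deficiency and 2779 and 3936 in the control. The other 3 groups of DAO overlapped one another, and only Fe deficiency stood above them.

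A pair of named members act in seeds. REP1 (LOC4324982) is a cysteine protease that digests storage protein in germinating seeds, and carries the name SAG12 as well. It had 821 and 1031 in Fe deficiency, 509 and 441 with both deficient, 78.0 and 58.5 in P deficiency and 106 and 18.2 in the control. Both groups without Fe were high, and 75.8% of the log2 difference from the control was still there in the combined deficiency. Wx (LOC4340018), the granule-bound starch synthase that makes amylose, had 107 and 124 in Fe deficiency, 63.5 and 6.56 with both deficient, 51.6 and 68.7 in P deficiency and 35.7 and 41.2 in the control. Its arrays in the combined deficiency lay on either side of the control.

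The remaining named members were signalling and stress genes. WNK7 (LOC4349598), a kinase of the WNK family, had 261 and 254 in Fe deficiency, 109 and 68.8 with both deficient, 129 and 104 in P deficiency and 127 and 118 in the control. APY3 (LOC4351367), an apyrase that hydrolyses nucleoside di- and triphosphates, had 162 and 167 in Fe deficiency, 84.1 and 66.6 with both deficient, 54.6 and 25.02 in P deficiency and 77.2 and 31.8 in the control. In both genes the Fe deficiency arrays lay above all the others. HSP16.0 (LOC4340661), a small heat shock protein, had 104 and 182 in Fe deficiency, 88.0 and 79.5 with both deficient, 7.88 and 73.5 in P deficiency and 12.95 and 72.8 in the control, so that the wide gaps within P deficiency and the control limit its comparison.

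The Fe deficiency arrays themselves were farthest apart for XBOS35 (LOC4345102), an E3 ubiquitin ligase with a RING finger and ankyrin repeats, for ML6 (LOC4347668), an RNA-binding protein of the MEI2-like family, and for LOC4344489. The gaps were 0.98, 0.94 and 0.89. XBOS35 had 9252 and 4695 in Fe deficiency, 4843 and 3707 with both deficient, 3478 and 3715 in P deficiency and 3715 and 4564 in the control, so its place among the members came from the first Fe deficiency array. ML6 had 200.3 and 96.8 in Fe deficiency, 81.3 and 6.57 with both deficient, 105 and 68.5 in P deficiency and 64.5 and 96.0 in the control. Here a low array in the combined deficiency and a high array in Fe deficiency set the score.

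Most of the highest scores belonged to genes known here by a locus number only, and no role is given for them. LOC4334975 ranked first, with 692 and 750 in Fe deficiency, 30.8 and 28.6 with both deficient, 40.2 and 1.31 in P deficiency and 10.7 and 27.5 in the control. It exceeded the array median only in Fe deficiency, which lay 4.43 above the control and 4.01 above the combined deficiency. LOC4349058 ranked second, with 1283 and 1616 in Fe deficiency, 58.3 and 113 with both deficient, 191 and 204 in P deficiency and 184 and 116 in the control. Its combined deficiency arrays were the lowest of all, 3.90 below Fe deficiency.

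LOC4334918 ranked next, with 218 and 211 in Fe deficiency, 5.46 and 5.14 with both deficient, 14.3 and 17.1 in P deficiency and 27.1 and 23.3 in the control. No groups overlapped, and the combined deficiency was again the lowest. LOC4349605 had 2099 and 2240 in Fe deficiency, 438 and 557 with both deficient, 176 and 180 in P deficiency and 250.5 and 266 in the control. LOC4330830 had 840 and 1253 in Fe deficiency, 212 and 252 with both deficient, 27.1 and 2.94 in P deficiency and 2.01 and 10.5 in the control, the widest difference from the control of any member at 5.58. Both groups without Fe lay above both groups with Fe for these last 2 genes.

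The other members among the 20 highest scores, also locus numbers, were LOC4336711, LOC4352564, LOC4351985, LOC4324944, LOC4352855, LOC4325422, LOC4340259, LOC4351693, LOC4340877 and LOC4345582. LOC4352855 and LOC4352564 were the brightest of them. LOC4352855 had 2345 and 2362 in Fe deficiency, 949 and 1065 with both deficient, 178 and 277 in P deficiency and 176 and 258 in the control. LOC4352564 had 3489 and 3854 in Fe deficiency, 1140 and 1078 with both deficient, 551 and 970 in P deficiency and 1140 and 774 in the control. The combined deficiency kept an intermediate level of LOC4352855 and a level of LOC4352564 close to that of the higher control array.

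How much of the difference from the control was left in the combined deficiency was not fixed by the rule beyond its upper limit, although the rule held that group below Fe deficiency. Both deficient minus control had a median of 0.05 over the members, against -0.02 over all probe sets, and ran from -1.02 to 3.50. It lay within 0.5 of the control in 66 members, above 0.5 in 25, against 17.8% of all probe sets, and below -0.5 in 9, against 17.9% of all probe sets. Both arrays of the combined deficiency lay above both control arrays in 35 members, against 23.5% of all probe sets, and below both in 13, against 25.9%. They lay above both arrays of P deficiency in 38 members, against 20.3%, and below both in 13, against 21.5%. The difference was therefore smaller without P in all members, by the rule, but was not lost in all of them. Among the 44 members at least 1 above the control in Fe deficiency, the combined deficiency kept a median of 32.8% of the log2 difference. It kept at least 50% in 13 of them, between 25% and 50% in 17 and under 25% in 14, among which 7 lay below the control.

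**Figure D3:**
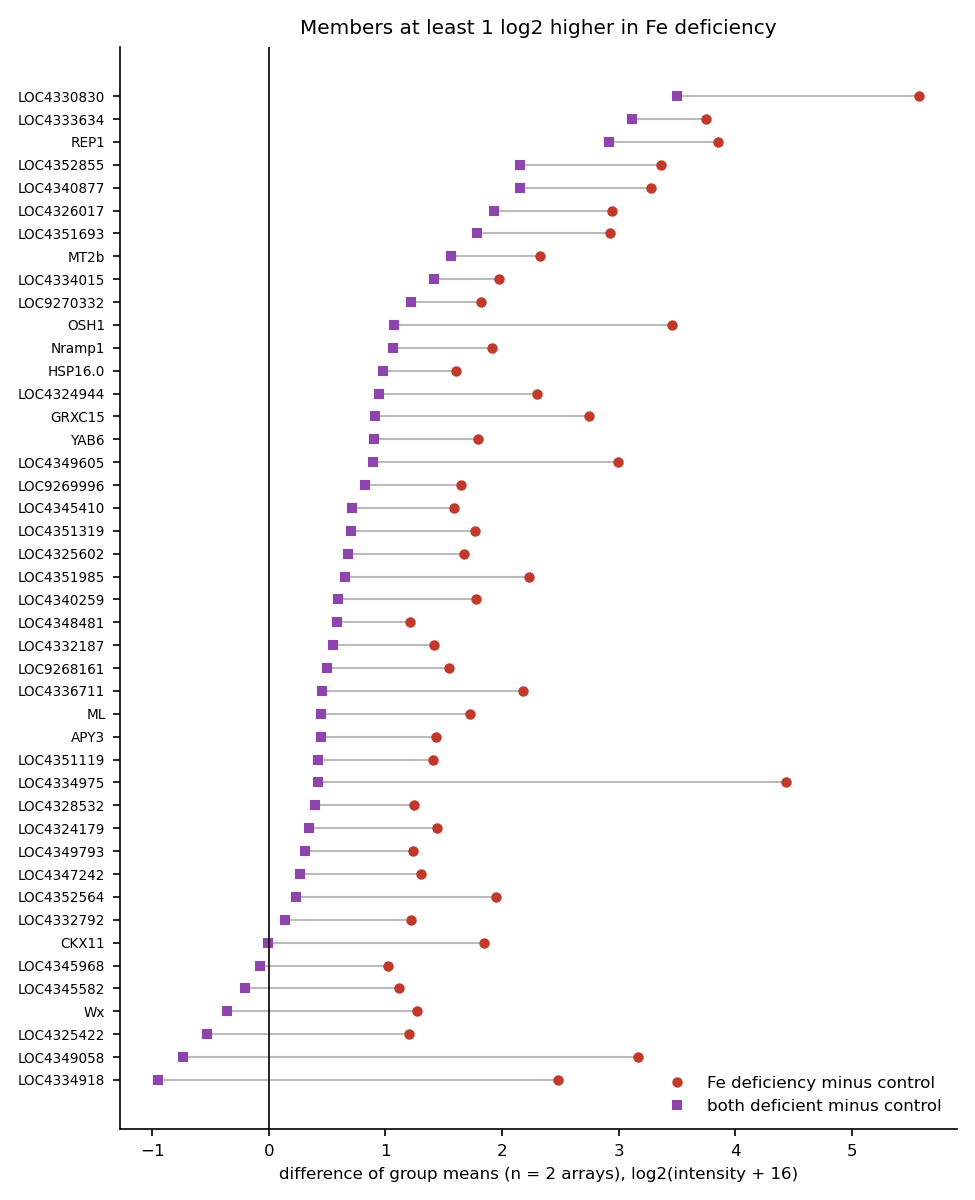
Difference of group means from the control (log2(intensity + 16), n = 2 arrays a group) for the 44 members at least 1 higher in Fe deficiency than in the control, with Fe deficiency as circles and both deficient as squares, ordered by the squares. The squares run from 3.50 for LOC4330830 to -0.95 for LOC4334918, and all lie left of their circle because the rule required it.

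With limma's test and Benjamini-Hochberg adjustment over all probe sets at 0.05, both deficient minus control was called higher in 9 members, against 2.07% of all probe sets and 0.386% of genes passing the limits, and lower in 1, against 1.78% and 0.075%. The rule bounds both groups from above, so these calls describe the members. The 9 were MT2b, LOC4333634, LOC4330830, LOC4352855, LOC4340877, LOC4351693, LOC4334015, LOC4349605 and LOC9269996. The 3 highest values were those of LOC4330830 (3.50, SE 0.44, adjusted p = 0.0239 in limma), LOC4333634 (3.11, SE 0.13, adjusted p = 0.00269 in limma) and REP1 (2.92, SE 0.58, adjusted p = 0.0575 in limma), the last of which missed the threshold. MT2b rose by 1.56 (SE 0.14, adjusted p = 0.0156 in limma), and Nramp1 at 1.07 missed the threshold (SE 0.20, adjusted p = 0.0507 in limma).

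LOC4333634 kept 83.1% of its log2 difference, the largest share of any member. It had 2275 and 2466 in Fe deficiency, 1523 and 1520 with both deficient, 153 and 152 in P deficiency and 167 and 156 in the control. Both groups without Fe were many times above both groups with Fe, and Fe deficiency stood only 0.63 above the combined deficiency. It was also the 1 member called higher in both deficient minus P deficiency (3.19, SE 0.13, adjusted p = 0.0134 in limma), against 0.0227% of all probe sets and 0.0107% of genes passing the limits. No member was called lower there, against 0.00874% of all probe sets. At an unadjusted p under 0.05 in limma 24 members were higher, against 5.31% of all probe sets, and 4 lower, against 4.84%.

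The 3 lowest values of both deficient minus control were those of ML6, LOC4334918 and LOC4341702, at -1.02, -0.95 and -0.77. LOC4334918 was the member called lower (SE 0.14, adjusted p = 0.0298 in limma), from an intensity in the control already below the array median. For ML6 and LOC4341702 the arrays of the combined deficiency were wide apart and the adjusted p was 0.507 and 0.559 in limma. LOC4341702 had 131 and 165 in Fe deficiency, 22.5 and 77.4 with both deficient, 41.0 and 144 in P deficiency and 105 and 70.3 in the control.

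For the contrasts that chose them, 10 members were called higher in Fe deficiency than in the control, against 0.105% of all probe sets, and 18 higher than in the combined deficiency, against 0.904%. The interaction, which asks whether the effect of Fe deficiency differs with and without P, was called lower in 1 member, LOC4334918, against 0.0332% of all probe sets. In 13 members both arrays of Fe deficiency lay above the control while both arrays of the combined deficiency lay below P deficiency, against 3.7% of all probe sets. The rule selected for all of these, so nothing is read from them.

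Genes with other probe sets give readings that did not set the members' scores. They come from the same RNA on the same arrays and, where the probe set names share a root, possibly from overlapping target sequence. Those that passed the limits were scored by the rule too, and the probe set with the highest score was taken. There were 50 other probe sets for 35 members, and 35 of them, for 27 members, had a mean of at least 7 in Fe deficiency. Of these brighter probe sets, 24 of 35 were above 0 in both differences, against 29.7% of all probe sets of 1 gene at that level, and 12 of 35 were at least 0.5 in both, against 1.42%, 6 of them within the P limit. Their median differences were 0.35 from the control and 0.47 from the combined deficiency, against 0.84 and 0.87 for the member probe sets of the same genes. For those within the limits, a score below the member's follows from the rule. For 10 of the 27 genes at least 1 other probe set reached 0.5 in both differences, and for 17 none did.

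Several members with large differences had another probe set that was also higher in Fe deficiency, though not always within the P limit. A second probe set of LOC4334975 gave 782 and 997 in Fe deficiency, 62.9 and 54.4 with both deficient, 34.6 and 34.8 in P deficiency and 3.01 and 7.42 in the control. It was higher in Fe deficiency than in the control by 5.41 (adjusted p = 0.00210 in limma) and higher than in the combined deficiency by 3.59 (adjusted p = 0.00728 in limma), but it was also 1.26 higher in P deficiency than in the control (adjusted p = 0.0196 in limma). Another, dim probe set of this gene gave 0.04 and 0.19. A second probe set of LOC4349058 was higher by 3.79 and 3.85 (adjusted p = 0.0101 and 0.00728 in limma), and P deficiency was 0.70 above the control (adjusted p = 0.109 in limma). That of LOC4340877 was higher by 5.94 and 1.19 (adjusted p = 0.00168 and 0.0425 in limma), but also 2.96 higher in P deficiency than in the control (adjusted p = 0.00480 in limma). Of the 2 other LOC4330830 probe sets, 1 was 4.69 above the control (adjusted p = 0.0166 in limma) and 0.85 above the combined deficiency (adjusted p = 0.228 in limma), and 1 gave 1.02 and 0.86 with no call. In the probe set at 4.69, P deficiency lay 1.56 below the control (adjusted p = 0.0375 in limma), outside the P limit. The second OSH1 probe set gave 2.34 and 1.37, neither past the threshold (adjusted p = 0.300 and 0.291 in limma).

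The second ML probe set gave 19426 and 19355 in Fe deficiency, 9379 and 10432 with both deficient, 7242 and 6230 in P deficiency and 9260 and 9216 in the control. Fe deficiency was 1.07 above the control (adjusted p = 0.0943 in limma) and 0.97 above the combined deficiency (adjusted p = 0.0431 in limma), which lay close to the control. MT2b had 4 other probe sets, all called higher in Fe deficiency than in the control, by 1.93 to 3.20, and higher than in the combined deficiency by 0.41 to 1.34 with no call. Their P deficiency minus control was -0.17, 0.29, 0.65 and 0.85, the last 2 outside the P limit. For WNK7 the other probe set gave 1.33 and 0.84, and for HOX5 0.60 and 0.47, with no call. P deficiency was 0.63 above the control in that of WNK7, outside the P limit, and 0.27 above it in that of HOX5.

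For other genes the second probe set gave smaller or opposite differences. The second CKX11 probe set was far brighter than the member and gave 2429 and 2572 in Fe deficiency, 1284 and 1414 with both deficient, 1139 and 1078 in P deficiency and 2078 and 2087 in the control. Fe deficiency was 0.26 above the control (adjusted p = 0.720 in limma) and 0.88 above the combined deficiency (adjusted p = 0.0436 in limma), and P deficiency lay 0.90 below the control (adjusted p = 0.0196 in limma). A brighter probe set of LOC4324944 was 0.97 above the control but -0.05 against the combined deficiency. The second probe set of XBOS35 gave 0.05 and 0.57, that of LOC4351777 gave 0.13 and -0.65 and that of LOC4338477, which was dim, gave -0.15 and 0.29. The 5 other probe sets of Wx, all dim, ran from -0.68 to 1.27 against the control.

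**Figure D4:**
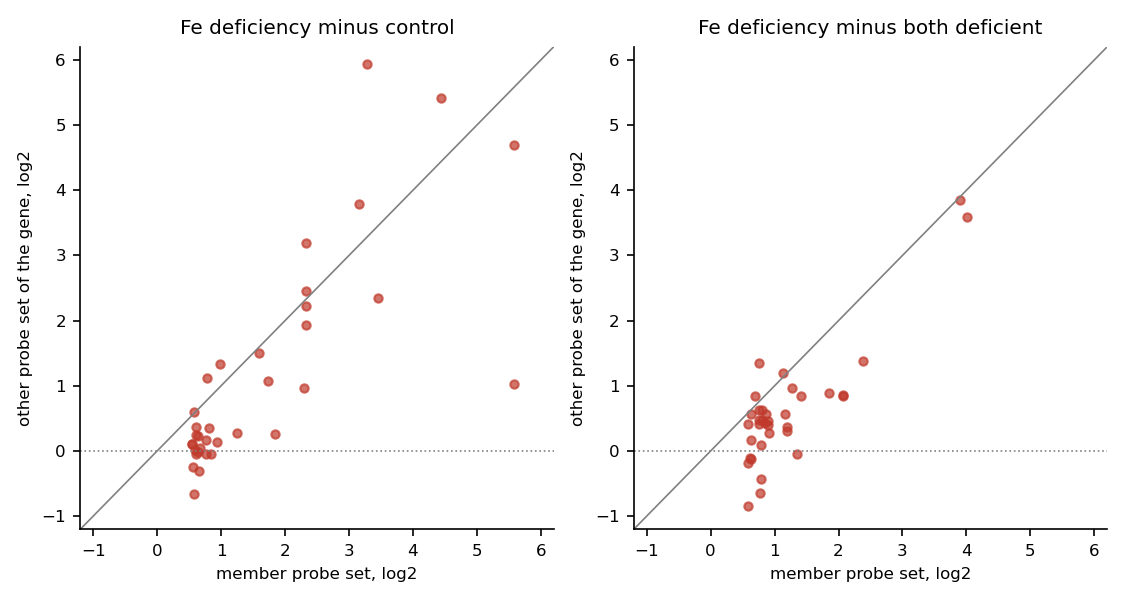
Other probe sets of member genes (35 with a mean of at least 7 in Fe deficiency) against the member probe set of the same gene, for Fe deficiency minus control and for Fe deficiency minus both deficient, in log2; the diagonal marks equal values. Most points lie below the diagonal, which the rule favours because it took the probe set with the highest score. Among them are the LOC4330830 probe sets at 1.02 and 4.69 against 5.58 for the member. Many probe sets of members under 1 lie near 0.

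The replicate numbers allow the rule to be applied to 1 array of each group and read on the other, an alternative added after the data were seen. The arrays are not pairs, all were normalized together, and the same Fe deficiency array of each set serves both differences. A high or low Fe deficiency array therefore moves both differences together, and they are not separate readings. Of 100 genes chosen on the arrays numbered 1, both differences were above 0 on the arrays numbered 2 in 69, against 36.1% of all genes passing the limits, and at least 0.5 in 31, against 1.43%. Of 100 genes chosen on the arrays numbered 2, both were above 0 on the arrays numbered 1 in 76, against 28%, and at least 0.5 in 46, against 1.2%. These shares are not matched for level or spread. The members had a median intensity of 386 in Fe deficiency, against 1121 for all genes passing the limits. Their median gap between Fe deficiency arrays was 0.17 against 0.09. The counts therefore describe the chosen genes, and no support is read from them. The median of Fe deficiency minus control was 0.93 where the genes were chosen and 0.40 where they were read in the first case, and 0.94 and 0.61 in the second. Fe deficiency minus both deficient had medians of 0.87 and 0.51 in the first case and 1.05 and 0.66 in the second.

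**Figure D5:**
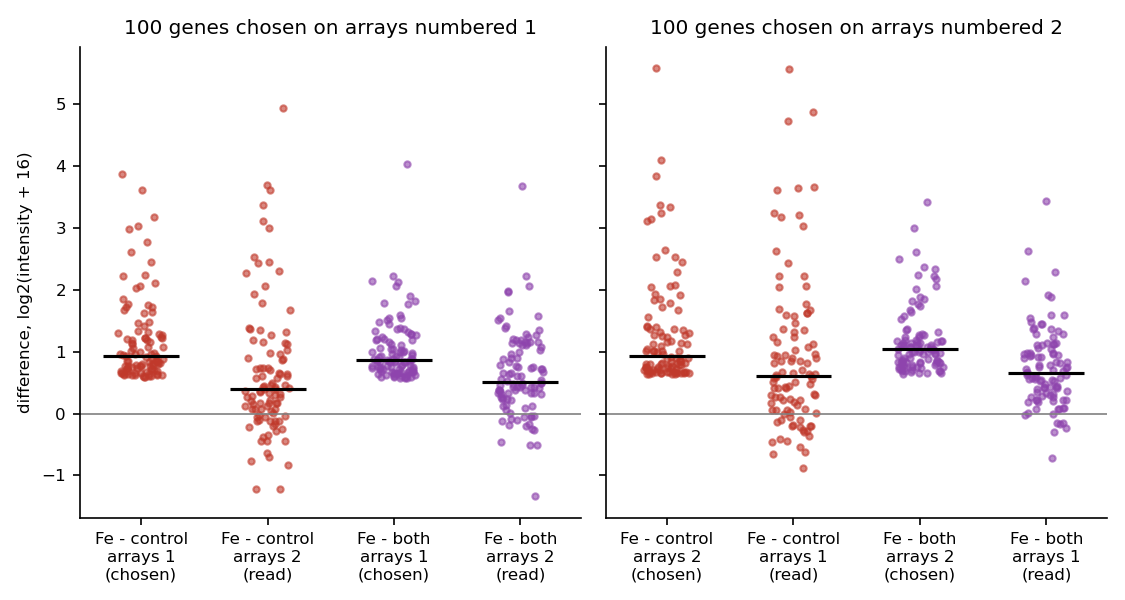
Differences in log2(intensity + 16) of 100 genes chosen by the rule on arrays of 1 replicate number, shown on the arrays that chose them and on the arrays that did not; points are genes and bars are medians. The medians are lower on the arrays that did not choose the genes, and some genes fall below 0 there.

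A total of 18 genes were chosen on both sets of arrays, all of them members. Their membership was nearly fixed in advance, because the members' differences are means over the same 2 sets of arrays. The named genes among them were GRXC15, ML, APY3, WNK7, Nramp1, MT2b and MTK1. For MT2b, WNK7 and LOC4330830 the 2 sets chose different probe sets of the gene, of which 1 was the member probe set. The member probe set of these genes was therefore chosen on 1 set only. Only 7 of the 20 highest members were among the 18, and 28 members were chosen on neither set. The P limit was applied to single arrays as well, so genes with large Fe differences could lie outside it. LOC4334975 lay outside it on both sets. OSH1 was chosen on the arrays numbered 2 only, and on the arrays numbered 1 its differences were 3.67 from the control and 2.15 from the combined deficiency. There OSH1 had 39.6 in P deficiency and 9.97 in the control, which is outside the P limit. Each set rests on 1 array a group.

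The members were a small part of the known iron response. Of 16 iron acquisition genes listed, 13 were measured, and Nramp1 was the only member among them, OsYSL9 and OsYSL15 having been left out by name. Both Fe deficiency arrays lay above both control arrays in 12 of the 13, against 18.8% of all probe sets, and above both arrays of the combined deficiency in 8, against 27%. In Fe deficiency against the control 3 of them were called higher, against 0.105%, and in the combined deficiency against the control also 3, against 2.07%. OsNAS1 and OsNAS2, the nicotianamine synthases at the head of the pathway, differed from the members. OsNAS2 (LOC4332607) had 13086 and 13211 in Fe deficiency, 10505 and 10984 with both deficient, 5758 and 6280 in P deficiency and 3514 and 3030 in the control, and Fe deficiency lay only 0.29 above the combined deficiency (adjusted p = 0.377 in limma). OsNAS1 lay 0.03 above it. Both genes were higher in P deficiency than in the control and so were outside the rule. Other listed genes had the members' pattern: Fe deficiency was 1.98 and 1.57 above the control and the combined deficiency for OsYSL15, and 1.34 and 1.17 for OsYSL9. OsNAAT1 (0.80 and 0.58) lay outside the P limit, and OsYSL16 (0.70 and 0.52) scored below the threshold. Fe deficiency minus both deficient was above 0 in 11 of the 13, the exceptions being OsIRT1 (-0.56) and OsIRT2 (-0.65).

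The methionine cycle list had 6 measured genes of 11. MTK1 was its member, none of the 6 was called in Fe deficiency against the control (0 of 6 against 0.105% of all probe sets), and the medians were 0.50 from the control and 0.12 from the combined deficiency. The phosphate starvation list held no member. Its 11 measured genes had a median of -3.15 for Fe deficiency minus both deficient, with 8 called lower, against 1.36% of all probe sets, and 7 called higher in the combined deficiency than in the control, against 2.07%. The 14 measured genes for diterpenoid phytoalexins, which are antimicrobial compounds, held no member. Nor did the 11 pathogenesis-related genes, but these include the chitinase loci that were left out by name, of which OsChia4a would have been a member.

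Transcripts of photosynthesis genes, listed as shoot markers with earlier results of these data known, were present in these root samples. Whether they came from shoot tissue was not tested. The 6 measured photosynthesis genes summed to 52161 and 55516 in Fe deficiency, 39647 and 37739 with both deficient, 34878 and 34140 in P deficiency and 62192 and 58413 in the control. All 6 lay above the array median, none at 0, with both Fe deficiency arrays above both arrays of the combined deficiency in 6, against 27% of all probe sets, and above both control arrays in none, against 18.8%. Their sum was highest in the control and lower in both groups without P, and its part in the members' values was not tested. The 8 measured root markers summed to 41049 and 41926 in Fe deficiency, 35946 and 39319 with both deficient, 38311 and 37465 in P deficiency and 44419 and 41021 in the control. OsLsi1 was the largest part of this sum, which hides opposite movements. Both deficient minus control was called higher for 3 of the 8, OsCASP1 (1.25), OsCESA4 (1.33) and OsCESA9 (1.27), against 2.07% of all probe sets. It was called lower for 1, OsLsi2 (-0.94), against 1.78%.

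Lists for shoot meristem, seed and germination were drawn up after the members had been seen, so they support nothing. The 11 measured KNOX and YABBY genes, 2 of them members, summed to 3490 and 3544 in Fe deficiency, 2598 and 3097 with both deficient, 2628 and 2807 in P deficiency and 2399 and 2472 in the control. In 7 of the 11 both Fe deficiency arrays lay above both control arrays, against 18.8% of all probe sets, and in 5 above both arrays of the combined deficiency, against 27%, and 5 lay below the array median. The 10 measured seed storage and endosperm starch genes, Wx among them, summed to 1354 and 1728 in Fe deficiency, 1022 and 923 with both deficient, 990 and 1002 in P deficiency and 1233 and 1132 in the control. Neither sum is shown to move with the members' values by a test.

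The 6 measured germination genes summed to 20462 and 22301 in Fe deficiency, 13007 and 9995 with both deficient, 442 and 417 in P deficiency and 369 and 284 in the control. In the groups without Fe this sum was nearly all AMY1.1 (LOC4330832), an alpha-amylase that digests starch in the germinating grain, and REP1 made up most of the remainder. In P deficiency and the control AMY1.1 made up less than the other genes together. AMY1.1 averaged 14.30 on the log2 scale in Fe deficiency, 13.39 in the combined deficiency, 7.44 in P deficiency and 5.00 in the control, and lay outside the rule because P deficiency was 2.45 above the control. In the gene table AMY1.1 lies next to the member LOC4330830. The lipid transfer gene LTP (LOC4351318), next to the member LOC4351319, averaged 8.52 in Fe deficiency, 7.12 in the combined deficiency, 5.28 in P deficiency and 6.12 in the control. These neighbours were singled out after their values were seen, and whether their probes and those of the members share targets was not tested. No pair of members were neighbours, the closest, LOC9268161 and LOC4339483, having 3 genes between them, and the members came from 12 chromosomes.

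Rises that were kept without P were also present. Of the 62 genes passing the limits with Fe deficiency at least 1 above the control, 44 were members and 18 were not. Those 18 had medians of 1.17 for Fe deficiency minus control, 0.35 for Fe deficiency minus both deficient and 0.87 for both deficient minus control. The 44 members had medians of 1.81, 1.09 and 0.63. The difference between these sets follows from the rule.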

How the data were processed

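Transcript levels were measured in rice roots on 8 Affymetrix arrays. The deposited values are intensities on a linear scale, made by the authors in Affymetrix Expression Console 1.1, per the submitters' processing notes. The summarization of probe signals was not given in the sources used here, and no detection calls were used. The trimmed mean intensity was 500.07 on each array, and the median 48.0 to 68.9, higher in both groups without P.

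After 123 AFFX and 64 RPTR control probe sets were left out, 57194 of 57381 remained. They were quantile-normalized, converted to log2(intensity + 16) and fitted in limma 3.58.1 (R 4.3.3; lmFit, eBayes; 1 mean per group, 8 arrays) with Benjamini-Hochberg adjustment over 57194 and a threshold of 0.05. The fit has 4 residual degrees of freedom, so precision is limited by 2 arrays a group. Where an array was left out, its lone partner was assumed to vary like the other groups. The fit was also run on simulated data, in which only probe sets with a control mean of at least 7 were raised. The control mean was below 7 in 37 members, so nothing about the members is read from that run. The probe table gave 1 gene for 22436 probe sets, several for 95 and none for 34663. The gene table (ASM3414082v1) describes japonica rice, while the plants were Indica, and a sequence difference can lower a signal. Where several probe sets of a gene passed, the highest score was taken.

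The members, lists and tests were chosen with earlier results of these data known. Named are the 20 highest scores, members with a gene name, the 3 highest and 3 lowest both deficient minus control, the 3 widest gaps between Fe deficiency arrays, 3 genes on each side of the threshold, list members and the 5 brightest members with another probe set. Other genes in the text were named because a result turned on them. Protein identity and promoters were not analysed here. Alternatives were another added constant, scaling, filter, prior, the replicate number as a block, the compared groups alone, each array left out, other limits in the rule and, added later, the rule on arrays of 1 replicate number. Same-numbered arrays did not deviate together (correlations -0.091 to 0.106), so they were not paired.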

Additional observations from a re-analysis of the deposited data

Results flagged for a closer look

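The interaction of Fe and P deficiency in the limma fit was -3.06 for LOC4334918, past the threshold, but it is built from the differences that the rule selected on, so passing is not evidence of its own. The number of members passing ran from 0 with 1 in place of 16 added, with the replicate block or with any array left out (28 to 42 at an unadjusted p under 0.05 in limma) to 9 with a trend and robust prior. Fe deficiency was 2.48 above the control, whereas both deficient minus P deficiency was -0.57, between dim intensities. Every array moved in opposite directions with and without P also for LOC4349058, where the difference of the differences was -4.29, and for HOX5, where it was -0.83, and neither interaction passed the threshold. The same direction of the arrays was seen in LOC4334918 (-3.06), and this pattern over arrays was not tested. Over all members 13 had arrays that moved in opposite directions without overlap, against 3.7% of all probe sets, and the rule favours this.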

How the results depend on the processing

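The counts of calls depended on how the spread was estimated. They are given in the order Fe deficiency minus control, Fe deficiency minus both deficient, both deficient minus P deficiency, both deficient minus control, the interaction, and other probe sets of the members against the control. The reported counts are 10, 18, 1, 10, 1 and 8. With 1 added in place of 16, the counts were 4, 3, 1, 6, 0 and 5 in limma (33 interactions at an unadjusted p under 0.05), and with 64 added they were 25, 46, 6, 13, 3 and 10. A filter on dim probe sets gave 27, 51, 10, 15, 7 and 11 over 69 members and 32 other probe sets, and a trend with a robust prior gave 35, 56, 14, 20, 9 and 12. With the replicate block, although the numbers did not pair the arrays, the counts were 2, 1, 0, 1, 0 and 4 in limma, where 26 members for both deficient minus P deficiency and 40 for the interaction had an unadjusted p under 0.05. With only the compared groups in the fit every count was 0 apart from the interaction, which needs all 4, while 78, 77, 23 and 17 members and 19 other probe sets had an unadjusted p under 0.05 in limma. Leaving out 1 array gave 0 to 2, 0 to 1, 0 to 1, 0 to 6, 0 to 0 and 0 to 4, with 58 to 77, 57 to 77, 20 to 27, 18 to 29 and 28 to 42 members and 15 to 21 other probe sets at an unadjusted p under 0.05 in limma, so that the number of calls rests on having all 8 arrays. Median centring and the values as scaled by the authors gave counts within 1.5 times of those reported. Applied again, the rule kept 66 to 91 of the 100 members with 1 array left out, fewest without the second Fe deficiency array, and 69 to 82 under other constants, scalings and limits. Among the alternative scores of named members, 370 moved by less than the spread between arrays, 26 moved by more and 0 changed sign. Depth has no equivalent here, and without detection calls the 18 members below the array median in the control have no stated level above background.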

Other observations

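Probe sets without a single gene in the probe table also followed the rule's pattern. Of 3950 that passed the level and P limits, 70 scored at least as high as the lowest member and 10 at least as high as the member ranked 20, with a highest score of 2.63. They are not named here.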
